A study of Saccharomyces cerevisiae with 6 samples.

Results

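The experiment set the response of yeast lacking ERG6 to compound 089 directly against that of yeast lacking SNQ2. Both strains derive from BY4742, a haploid laboratory strain of Saccharomyces cerevisiae of genotype MATα his3 leu2 lys2 ura3. In one strain kanMX4 replaced ERG6, and in the other kanMX replaced SNQ2. Treated cells were shaken with 0.2 mM 089, an amide of a bicyclic octane by the chemical name in the labels, for 4 h at 28 °C in YPD, a rich glucose medium, here at pH 4.8 and high cell density. Untreated cells of the same strain went through the same 4 h without it. Each array was a two-colour hybridisation of total RNA, with treated cells in Cy5 and untreated cells of the same strain in Cy3. The comparison used 4 of the 6 arrays, 2 for each deletion strain. The series text names them biological replicates. The other 2 arrays, of the parental strain, entered alternatives alone. It covered 6362 genes of the 7045 features, after 144 features named Blank and 539 named empty were set aside.

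ERG6 encodes an enzyme late in ergosterol synthesis, which methylates the sterol side chain at C-24. Cells without it live, but build their plasma membrane from sterols that lack the methyl group on the side chain, and are known for taking up many small molecules more readily. SNQ2 encodes an ABC pump in the plasma membrane, which exports a wide range of drugs, and belongs to the pleiotropic drug resistance network with PDR5 and YOR1. One deletion thus bears on the membrane barrier and the other on export. The labels do not give what 089 acts on.

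Values are given on the log2 scale, treated over untreated cells. The sample titles make this direction likely without stating it, and were it reversed, all signs here would turn. A difference is the mean of the erg6 deletion arrays minus that of the snq2 deletion arrays, so that a positive value means a response that was higher, or less negative, in the strain without ERG6. A ratio does not give the level in untreated cells, so a gene whose level already differed between the untreated strains cannot be told apart from one that responded differently. A ± gives the fit's standard error (SE), n = 2 arrays per strain throughout. A gene passed where limma's moderated test gave a Benjamini-Hochberg adjusted p under 0.05 over all 6362 genes. In bulk RNA, less RNA per cell and fewer cells expressing a gene cannot be told apart.

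The responses of the deletion strains correlated weakly. Across genes the strain means correlated at Pearson r = 0.27 and Spearman rho = 0.203, while replicates correlated at r = 0.713 in the erg6 deletion, against 0.916 in the snq2 deletion. These are correlations across genes, and genes are not independent replicates. The difference passed at 2715 genes, 42.7% of those tested, of which 1278 (20.1%) were higher and 1437 (22.6%) lower in the erg6 deletion. Of these, 738 (11.6% of all genes) were higher and 594 (9.34%) lower by at least 2-fold. Both erg6 deletion arrays lay above both snq2 deletion arrays at 34.5% of all genes and below them at 41.2%. The median difference over all genes was -0.079, and the quartiles were -0.57 and 0.52. The median absolute difference between strains was 0.55. Between replicates it was 0.20 in the erg6 deletion, against 0.17 in the snq2 deletion.

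Some of these differences came with responses that ran in opposite directions. Tested against 0 in the same fit, 48.8% of genes passed in the erg6 deletion, where 1333 rose (21%) and 1774 fell (27.9%), and 45.6% passed in the snq2 deletion, where 1426 rose (22.4%) and 1478 fell (23.2%). Of the 1278 genes that were higher in the erg6 deletion, 263 (4.13% of all genes) rose there and fell in the snq2 deletion. A further 508 passed as a fall in the snq2 deletion without passing in the erg6 deletion, and 333 passed as a rise in the erg6 deletion without passing in the snq2 deletion. Of the 1437 that were lower, 323 (5.08%) fell in the erg6 deletion and rose in the snq2 deletion, 613 passed as a fall in the erg6 deletion alone, and 337 as a rise in the snq2 deletion alone. A shared response without a difference that passed was also common, with 466 genes that rose and 284 that fell in both strains.

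**Figure D1:**
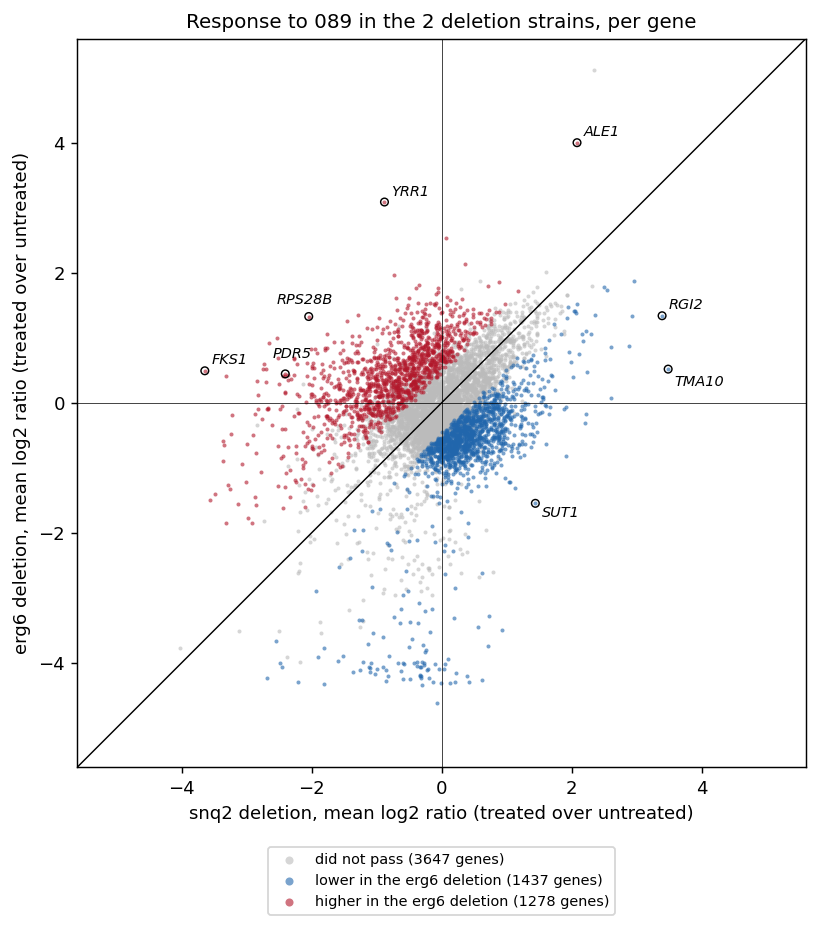
Each point is 1 of 6362 genes, placed by its mean log2 ratio of treated over untreated in the snq2 deletion (horizontal axis) and in the erg6 deletion (vertical axis), with 2 arrays per mean. Red and blue points passed as higher (1278) and lower (1437) in the erg6 deletion, grey points did not pass, circles mark named genes and the diagonal marks equal responses. The red points reach to the left of 0, where FKS1 and PDR5 lie, and a band of blue points lies near -4 on the vertical axis.

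Some properties of the arrays touch every result. The features named empty, which stand for no gene, had a median difference of 1.44, from medians of 2.11 in the erg6 deletion, against 0.55 in the snq2 deletion. Of the 539 empty features, 226 would have passed as higher and 4 as lower, 42.7% together, the same share as among genes. The 144 Blank features had a median difference of 0.021, and 46 would have passed as higher and 38 as lower. Together that was 58.3% of them, against 42.7% of genes. The central 95% of all these control features ran from -1.56 to 3.18. Among the genes that passed, 10 higher ones lay above that range and 194 lower ones lay below it.

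Exact values also recurred across features of an array. On the erg6 deletion arrays 45.5% and 45.0% of the genes had a value that another feature of that array held exactly. On the snq2 deletion arrays 32.9% and 9.46% did. Among empty features the share was between 82.2% and 93.1%. The 2502 genes with no such value on any of the 4 arrays had a median difference of -0.19, with 530 higher (21.2%) and 787 lower (31.5%). These are the values to set beside list members without a recurring value. What makes values recur was not tested. For many groups below, though not all, the value over members without recurring values is given beside the main one. At single genes a recurring value is named in some cases only, so a gene without such a mention may have one. For example, CDS1, IRE1 and PDR3 had one on 3 of the 4 arrays, and BI4 on all 4.

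The calls rest on the replicates of the snq2 deletion. With either of its arrays left out of the fit to 4 arrays, the spread came from the erg6 deletion alone and 0 genes passed in limma, with 2483 and 2247 at an unadjusted p under 0.05. With the parental arrays also in the fit, an alternative chosen after the data were seen, 2332 and 1952 genes passed without snq2 deletion replicate 1 or 2. Of the genes described here, ALE1, BI2, CLN3 and PDR3 did not pass in that fit without snq2 deletion replicate 2.

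**Figure D2:**
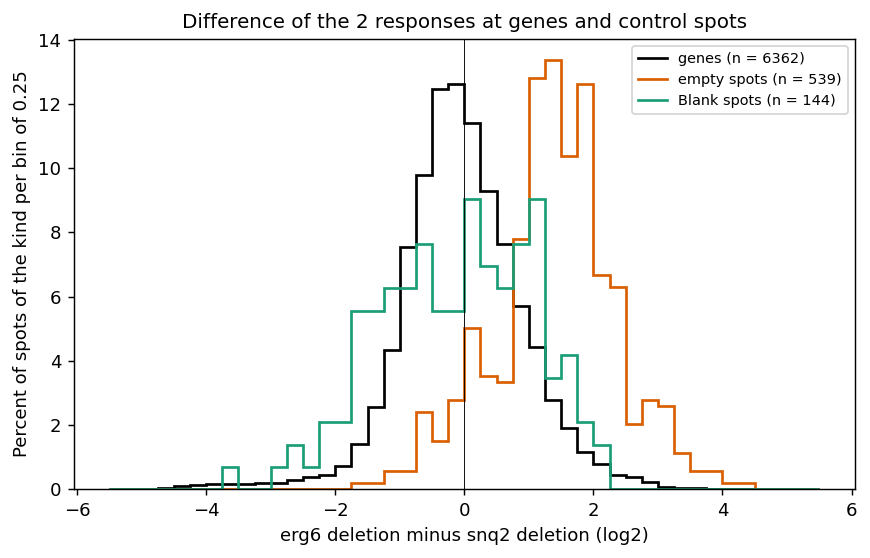
Distribution of the difference between the erg6 and snq2 deletion responses (log2, horizontal axis) at 6362 genes, 539 empty features and 144 Blank features, as the percent of each kind per bin of 0.25 (vertical axis). The genes centre near 0, with a median of -0.079, while the empty features centre at 1.44 and the Blank features spread widely about 0.021.

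Cytosolic ribosomal protein genes formed the group with the highest median difference among the 43 lists examined. Of 136 measured, 112 were higher in the erg6 deletion and 6 lower, and the median difference was 1.38 against -0.079 over all genes. The medians were 0.99 and 0.98 on the erg6 deletion arrays against -0.36 and -0.36 on the snq2 deletion arrays, so the group lay on opposite sides of 0 in the strains. Tested within each strain, 103 of the 136 rose and 3 fell in the erg6 deletion, while 6 rose and 65 fell in the snq2 deletion. The 114 members without a recurring value had a median of 1.42, with 94 higher and 5 lower. Empty features, which stand for no gene, had a median difference of 1.44. Of the 136 genes, 2 had a difference outside the central 95% of the control features. Over all genes 20.1% were higher and 22.6% lower, the shares to set beside the counts of each list.

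RPS28B, a small subunit protein, led the group with 1.37 and 1.28 in the strain without ERG6 against -1.92 and -2.17 in the strain without SNQ2. All readings of one strain lay apart from those of the other, and the difference was 3.37 ± 0.16 (adjusted p = 0.00316), a 10.3-fold ratio of responses. RPL9B, a large subunit protein, had 1.09 and 0.98 where ERG6 was deleted and -1.23 and -1.33 where SNQ2 was, a difference of 2.31 ± 0.14 (adjusted p = 0.00346). RPL20A had 1.60 and 1.63 without ERG6 and -0.79 and -0.61 without SNQ2, a difference of 2.32 ± 0.14 (adjusted p = 0.00346). RPL27A was higher by 2.20 ± 0.13 (adjusted p = 0.00339). The 6 members that ran the other way included RPL41A and RPL41B, a pair for the smallest ribosomal protein, which were chosen after their values were seen and differed by -1.78 and -1.29. Most of these genes come as near-identical pairs, and whether a spot tells one copy from the other was not examined here.

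Genes of translation itself differed in the same direction. Among 37 cytosolic translation factors 22 were higher in the erg6 deletion and 2 lower, with a median difference of 1.07, and among the 22 without a recurring value the median was 1.18. PAB1, the poly(A)-binding protein, had 0.42 and 0.33 in the strain without ERG6 against -1.64 and -1.85 in the strain without SNQ2, a difference of 2.12 ± 0.15 (adjusted p = 0.0036). PRT1, a subunit of initiation factor 3, had 0.71 and 0.70 where ERG6 was deleted and -0.96 and -1.12 where SNQ2 was, a difference of 1.74 ± 0.14 (adjusted p = 0.00406). TIF1 and TIF2, the near-identical genes for the helicase eIF4A, differed by 2.68 ± 0.20 and 2.84 ± 0.18. In these genes the response was positive on both erg6 deletion arrays and negative on both snq2 deletion arrays.

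Aminoacyl tRNA synthetases, which charge tRNAs with amino acids, followed, with 12 of 19 past the threshold, each as higher, and a median of 1.13. The 11 without a recurring value had a median of 0.76, with 6 higher. VAS1, for valine, had 0.78 and 1.00 without ERG6 and -1.19 and -1.36 without SNQ2, a difference of 2.17 ± 0.16 (adjusted p = 0.00373). FRS1, a subunit for phenylalanine, had 0.42 and 0.77 in the strain without ERG6 against -1.72 and -1.95 in the strain without SNQ2, a difference of 2.43 ± 0.19 (adjusted p = 0.00406), and its partner FRS2 differed by 1.16 ± 0.19 (adjusted p = 0.0125). YDR341C, the arginine enzyme, was high in the erg6 deletion with 1.18 and 1.17 where ERG6 was deleted and -0.13 and 0.073 where SNQ2 was, a difference of 1.20 ± 0.14 (adjusted p = 0.00677). Its values in the snq2 deletion lay on both sides of 0.

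Genes that build ribosomes gave a less even picture. Among 59 genes of the small subunit processome and snoRNPs, which process ribosomal RNA in the nucleolus, 24 were higher and 5 lower, with a median difference of 0.66. The list's medians were below 0 on all 4 arrays, -0.15 and -0.33 in the erg6 deletion, against -0.79 and -1.09 in the snq2 deletion. Within strains 18 of the 59 fell in the erg6 deletion, against 39 in the snq2 deletion. The 21 members with no recurring value had a median difference of 0.021, with 5 higher and 5 lower. Among 66 large subunit assembly factors 22 were higher and 4 lower at a median of 0.37, and the 30 without a recurring value had a median of -0.052 with 6 higher and 4 lower. The part of recurring values in these medians was not tested.

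Some assembly factors nonetheless stood among the highest differences of the experiment. NOG1, a GTPase of the large subunit precursor, had 0.14 and 0.70 without ERG6 and -3.07 and -3.56 without SNQ2, a difference of 3.73 ± 0.28 (adjusted p = 0.00386). NOG2, another such GTPase, had 1.01 and 0.83 in the strain without ERG6 against -2.46 and -2.84 in the strain without SNQ2, a difference of 3.57 ± 0.19 (adjusted p = 0.00333). Both lay near or above 0 in the strain without ERG6 and far below it in the strain without SNQ2. NIP7, needed for large subunit maturation, had 0.28 and 0.38 where ERG6 was deleted and -2.48 and -3.19 where SNQ2 was, a difference of 3.16 ± 0.27 (adjusted p = 0.00421). NOP58, a core protein of box C/D snoRNPs, had -0.26 and -0.11 without ERG6 and -2.99 and -3.47 without SNQ2, a difference of 3.04 ± 0.21 (adjusted p = 0.0036). Among further processome and assembly genes, UTP14 differed by 2.72 ± 0.22, NOP2 by 2.47 ± 0.16, NAN1 by 2.58 ± 0.26, RLP24 by 1.84 ± 0.16 and PNO1 by 1.43 ± 0.15. Each of these but PNO1 had a recurring value on 1 or 2 of the 4 arrays. RIO2, a kinase of late small subunit maturation, ran the other way with -1.13 and -1.32 in the strain without ERG6 against 1.21 and 0.85 in the strain without SNQ2, a difference of -2.25 ± 0.19 (adjusted p = 0.00406) and no recurring value.

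RNA polymerases I and III, which make ribosomal and transfer RNA, split within the list. Of 27 genes 8 were higher (29.6%, against 20.1% of all genes) and 6 lower (22.2%, against 22.6%). The median difference was -0.11. The second largest subunit of polymerase I, RPA135, had 0.40 and 0.79 where ERG6 was deleted and -2.70 and -2.78 where SNQ2 was, a difference of 3.33 ± 0.18 (adjusted p = 0.00333). Its largest subunit RPA190 had 0.52 and 0.62 without ERG6 and -1.77 and -2.21 without SNQ2, a difference of 2.56 ± 0.20 (adjusted p = 0.00404), and RPC40, shared by both polymerases, differed by 2.85 ± 0.19. RPO31, the largest subunit of polymerase III, was higher by 1.71 ± 0.16 (adjusted p = 0.00481). These 4 genes each had a recurring value on 2 arrays, and the 14 members without one had a median of -0.21.

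**Figure D3:**
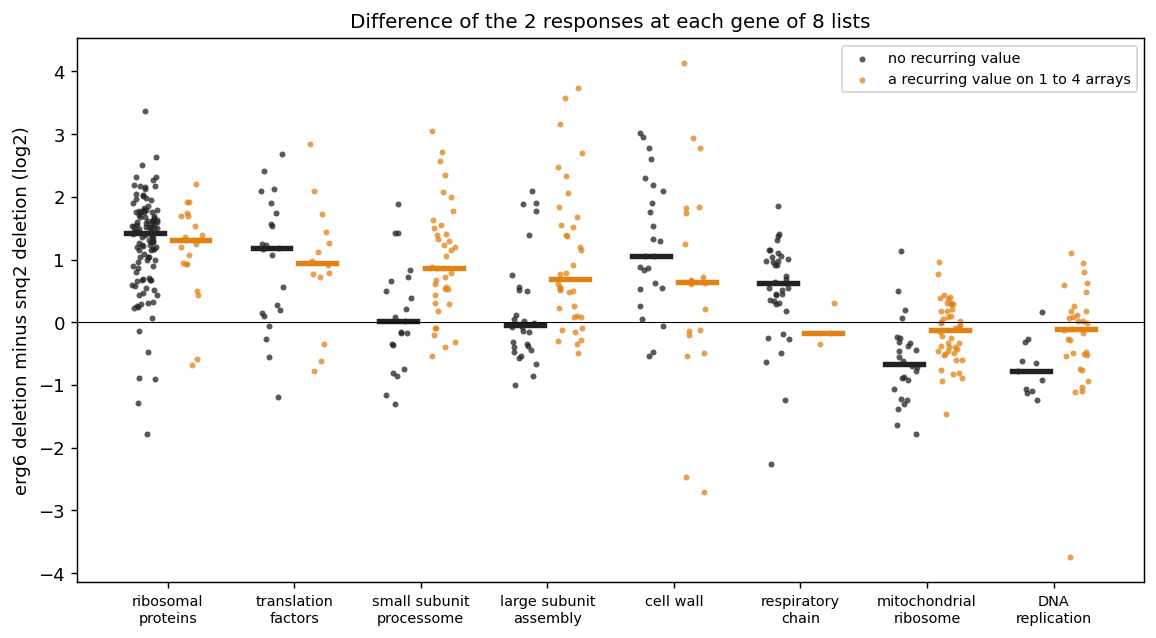
Difference between the erg6 and snq2 deletion responses (log2, vertical axis) at each gene of 8 lists (horizontal axis), with genes that had a recurring exact value on 1 to 4 of the 4 arrays in orange and the other genes in black, and horizontal bars at the medians. Ribosomal protein and cell wall genes lie mostly above 0 in both colours, while the black points of the small and large subunit assembly lists centre at 0.021 and -0.052.

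Cell wall genes were mostly higher in the strain without ERG6 as well. Of 45 genes of the wall and of the integrity pathway that controls it, 30 were higher and 3 lower, with a median difference of 0.87 and, in the 25 without a recurring value, 1.06. The list's medians were 0.23 and 0.37 on the erg6 deletion arrays against -0.62 and -0.68 on the snq2 deletion arrays. Within strains 19 members rose and 6 fell in the erg6 deletion, and 3 rose and 24 fell in the snq2 deletion. Of the 45 genes, 3 had a difference outside the central 95% of the control features.

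FKS1, a catalytic subunit of the glucan synthase that lays down the main wall polymer, had the highest named difference. Its values were 0.55 and 0.44 in the strain without ERG6 against -3.54 and -3.74 in the strain without SNQ2, slightly above 0 in one strain and far below it in the other. The difference was 4.13 ± 0.15 (adjusted p = 0.00258), a 17.6-fold ratio, and its value recurred at other features on 2 of the 4 arrays. HSP150, a secreted wall glycoprotein of the PIR family, had 0.23 and 0.41 where ERG6 was deleted and -2.77 and -2.62 where SNQ2 was, a difference of 3.02 ± 0.15 (adjusted p = 0.00333) and no recurring value. PIR3, of the same family, had -0.055 and 0.28 without ERG6 and -2.84 and -2.81 without SNQ2, a difference of 2.94 ± 0.17 (adjusted p = 0.00339). CRH1, which links chitin to glucan, had 0.64 and 0.74 in the strain without ERG6 against -2.11 and -2.43 in the strain without SNQ2, a difference of 2.96 ± 0.17 (adjusted p = 0.00339).

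The same direction held for the wall-integrity kinase and its target. SLT2, the MAP kinase at the end of the pathway, differed by 2.77 ± 0.33, and RLM1, the transcription factor it activates, by 2.19 ± 0.16. GAS1, a glucan-elongating enzyme, differed by 2.78 ± 0.23 and the aspartic protease YPS1 by 2.60 ± 0.21. These 4 genes were chosen after their values were seen. BCK1, the kinase kinase kinase above SLT2, ran the other way with -2.52 and -1.62 where ERG6 was deleted and 0.82 and -0.0026 where SNQ2 was, a difference of -2.48 ± 0.43 (adjusted p = 0.014). Its snq2 deletion replicates lay on both sides of 0, and its value recurred at other features on all 4 arrays. Mannoproteins of the TIR family behaved unevenly, since TIR1 had 0.40 and 0.65 without ERG6 and -2.68 and -2.82 without SNQ2, a difference of 3.27 ± 0.16 (adjusted p = 0.00333), and TIR2 was higher by 2.55 ± 0.18, while TIR3 was lower at -1.46 ± 0.17 (adjusted p = 0.00664). In the wider list of 34 seripauperin, DAN and TIR genes 3 were higher (8.82%) and 1 lower (2.94%), against 20.1% and 22.6% of all genes.

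**Figure D4:**
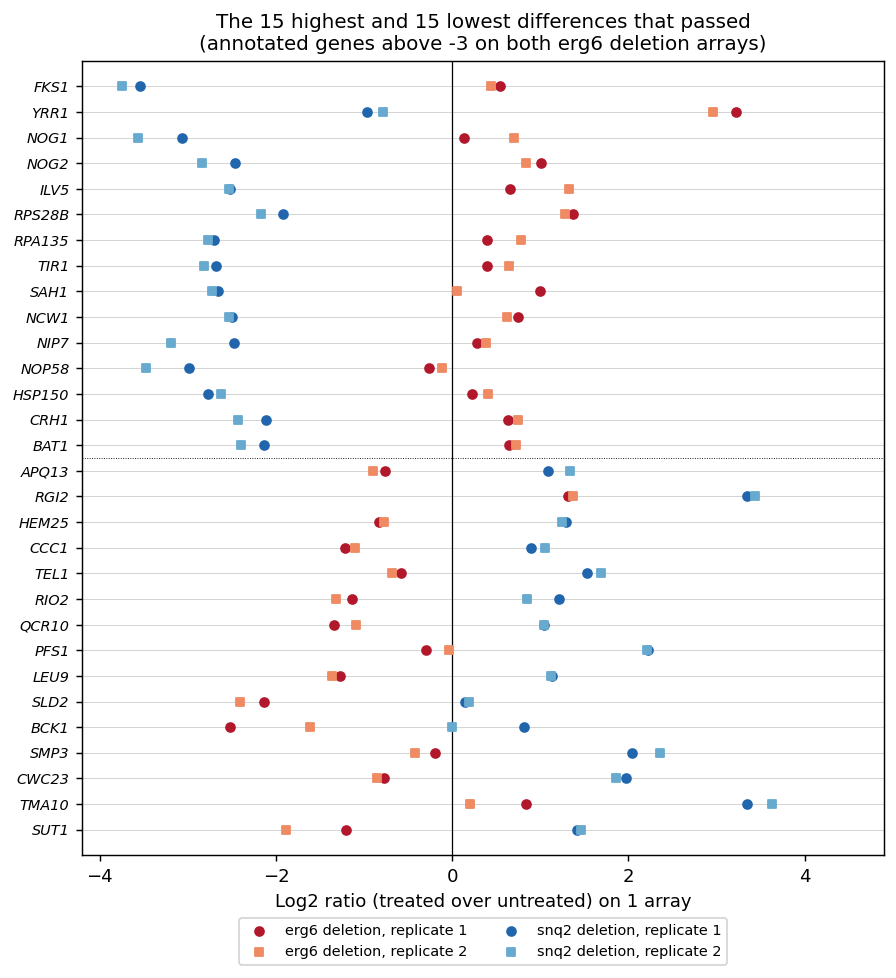
Log2 ratio of treated over untreated (horizontal axis) on each of the 4 arrays for the 15 highest and 15 lowest differences among annotated genes that passed and lay above -3 on both erg6 deletion arrays (vertical axis), red and orange for the erg6 deletion and dark and light blue for the snq2 deletion. In the upper 15 genes the blue points lie below 0 and in FKS1 reach -3.54 and -3.74, and in the lower 15 the red and orange points lie to the left of the blue ones.

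Drug efflux genes went both ways. Of 33 pumps and their regulators 7 were higher (21.2%) and 8 lower (24.2%), near the 20.1% and 22.6% of all genes. The median difference was -0.071. The 13 without a recurring value had a median of -0.48, with 2 higher and 5 lower, against a median of -0.19 over all genes without one. PDR5, the main ABC exporter beside SNQ2, had 0.54 and 0.35 in the strain without ERG6 against -2.39 and -2.42 in the strain without SNQ2. It was thus slightly positive without ERG6 and strongly negative without SNQ2, a difference of 2.85 ± 0.14 (adjusted p = 0.00333) or 7.21-fold. PDR1, the transcription factor that drives PDR5, had 0.16 and 0.12 where ERG6 was deleted and -1.68 and -1.94 where SNQ2 was, a difference of 1.95 ± 0.16 (adjusted p = 0.00406). PDR3, its partner, had -0.85 and -0.67 without ERG6 and -0.17 and -0.16 without SNQ2, a difference of -0.59 ± 0.14 (adjusted p = 0.0313) that passed under 9 of 17 alternatives. It did not pass without erg6 deletion replicate 1, where the difference was -0.50, nor after centring and scaling, nor without either snq2 deletion replicate, also where the parental arrays were in the fit. YOR1, another exporter of the network, had -0.29 and -0.34 in the strain without ERG6 against 0.12 and 0.0035 in the strain without SNQ2 and did not pass, at -0.38 ± 0.14 (adjusted p = 0.0848), though it passed with the parental arrays in the fit.

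YRR1, a zinc cluster factor known to activate SNQ2 and YOR1, had the second highest named difference. Its values were 3.22 and 2.96 where ERG6 was deleted and -0.97 and -0.79 where SNQ2 was, a difference of 3.97 ± 0.17 (adjusted p = 0.00258) or 15.6-fold. It was strongly positive on both erg6 deletion arrays and below 0 on both snq2 deletion arrays, and the value recurred at other features on all 4 arrays. QDR2, a transporter of the major facilitator superfamily, ran the other way with -0.43 and -0.46 without ERG6 and 1.48 and 1.47 without SNQ2, a difference of -1.92 ± 0.13 (adjusted p = 0.00355). PDR12, the exporter of weak organic acids, differed by 2.77 ± 0.35, and AZR1, another facilitator, by -1.74 ± 0.22, both chosen after their values were seen.

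The deleted genes themselves do not check the deletions, since each array compares 2 samples of one strain. ERG6 had -0.65 and -0.85 in the strain without ERG6 against 0.17 and 0.38 in the strain without SNQ2, the former in cells without the gene, a difference of -1.02 ± 0.16 (adjusted p = 0.0113). SNQ2 had 0.22 and 0.11 where ERG6 was deleted and 0.22 and 0.025 where SNQ2 was, the latter in cells without the gene, a difference of 0.040 ± 0.15 (adjusted p = 0.841) whose sign turned with single arrays left out. In the strain that lacks it, ERG6 passed as a fall when tested against 0 in limma (adjusted p = 0.00927). SNQ2, likewise tested in the strain that lacks it, did not pass (adjusted p = 0.394). Of the marker genes mutated in both strains, LYS2 differed by -0.95 ± 0.16 (adjusted p = 0.013) and URA3 by -0.39 ± 0.14 (adjusted p = 0.0846). HIS3 differed by 1.01 ± 0.29 (adjusted p = 0.048), which was not past the threshold with a replicate block or a 1.5-fold minimum. Nor was it past the threshold without erg6 deletion replicate 2 where the parental arrays were in the fit. LEU2 differed by 1.39 ± 0.78 (adjusted p = 0.211), and its snq2 deletion replicates lay far apart at -1.22 and -3.51. The values of LYS2 and LEU2 each recurred at other features on 3 of the 4 arrays.

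Ergosterol synthesis split by enzyme. Of 32 genes of the pathway and its regulation 9 were higher and 4 lower. The median difference was 0.056 and lay between -0.057 and 0.15 across the alternatives. The 15 without a recurring value had a median of -0.0072, with 3 higher and 2 lower. ERG3, the C-5 desaturase that acts after Erg6, had 0.80 and 0.81 without ERG6 and -1.78 and -1.80 without SNQ2, a difference of 2.60 ± 0.13 (adjusted p = 0.00333). ERG4, the last enzyme of the pathway, had 0.16 and 0.40 in the strain without ERG6 against -1.86 and -2.13 in the strain without SNQ2, a difference of 2.27 ± 0.18 (adjusted p = 0.00404). ERG1, squalene epoxidase, had 0.51 and 0.55 where ERG6 was deleted and -0.99 and -0.90 where SNQ2 was, a difference of 1.47 ± 0.13 (adjusted p = 0.0045). All lay above 0 without ERG6 and below 0 without SNQ2. ERG11, the azole target, was higher by 1.36 ± 0.20 and ERG25 by 1.18 ± 0.13, both chosen after their values were seen. SUT1, a factor that promotes sterol uptake, had the lowest difference among annotated genes that passed and lay above -3 on both erg6 deletion arrays, with -1.21 and -1.88 without ERG6 and 1.42 and 1.46 without SNQ2, a difference of -2.99 ± 0.26 (adjusted p = 0.0043) or 7.93-fold.

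In lipid synthesis beyond sterols, more genes were higher than lower without ERG6. Of 31 fatty acid and sphingolipid genes 15 were higher and 6 lower, with a median of 0.52 and, in the 12 without a recurring value, 0.23. LCB1, a subunit of serine palmitoyltransferase, had 0.46 and 0.38 in the strain without ERG6 against -1.64 and -1.81 in the strain without SNQ2, a difference of 2.15 ± 0.14 (adjusted p = 0.00355). FAS1, a subunit of fatty acid synthase, had 0.90 and 0.93 where ERG6 was deleted and -0.35 and -0.34 where SNQ2 was, a difference of 1.26 ± 0.13 (adjusted p = 0.00518). ELO1 and PHS1, which elongate fatty acids, were lowest at -3.92 ± 0.14 and -3.44 ± 0.14, and both read exactly -3.96 and -4.08 on the erg6 deletion arrays, values shared by other features.

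Among 24 phospholipid and inositol genes 6 were higher (25%, against 20.1% of all genes) and 1 lower (4.17%, against 22.6%). ALE1, a lysophospholipid acyltransferase, was positive on all 4 arrays, with 4.26 and 3.74 without ERG6 and 2.16 and 2.01 without SNQ2. The response without ERG6 was higher by 1.92 ± 0.22 (adjusted p = 0.00617). INM1, an inositol monophosphatase, was negative on all 4 arrays, with -0.69 and -0.48 in the strain without ERG6 against -1.94 and -2.13 in the strain without SNQ2, a difference of 1.45 ± 0.16 (adjusted p = 0.00582). CDS1, which makes CDP-diacylglycerol, differed by 1.60 ± 0.27. Of the 10 members without a recurring value 1 passed, as lower, and their median was -0.11 against 0.17 in the whole list.

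For peroxisomes and fatty acid oxidation, more genes were lower than higher. Of 37 genes 3 were higher and 12 lower (32.4%, against 22.6% of all genes), with a median difference of -0.27. The 17 without a recurring value had a median of -0.64 with 9 lower. All genes without one had a median of -0.19, with 31.5% lower. PEX21, an import receptor partner, had -0.19 and -0.29 where ERG6 was deleted and 1.34 and 1.21 where SNQ2 was, a difference of -1.52 ± 0.14 (adjusted p = 0.00463). ECI1, an isomerase of fatty acid oxidation, was positive on all 4 arrays, with 0.35 and 0.39 without ERG6 and 1.44 and 1.64 without SNQ2, a difference of -1.17 ± 0.15 (adjusted p = 0.00711).

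Glycolysis and fermentation genes that passed were mostly higher without ERG6. Of 27 glycolysis and fermentation genes 14 were higher and 5 lower, with a median of 0.71 and of 0.61 in the 22 without a recurring value. PDC1, the main pyruvate decarboxylase, had 0.83 and 0.80 in the strain without ERG6 against -1.52 and -1.52 in the strain without SNQ2, a difference of 2.33 ± 0.13 (adjusted p = 0.00333). PDC5, a second one, had 0.53 and 0.32 where ERG6 was deleted and -2.36 and -2.16 where SNQ2 was, a difference of 2.69 ± 0.16 (adjusted p = 0.00346). PFK2, a subunit of phosphofructokinase, had 0.42 and 0.60 without ERG6 and -1.66 and -1.996 without SNQ2, a difference of 2.33 ± 0.18 (adjusted p = 0.00406). These 3 lay above 0 without ERG6 and below 0 without SNQ2. GPP2, a glycerol phosphatase, fell in both strains, with -2.81 and -2.85 in the strain without ERG6 against -1.07 and -1.09 in the strain without SNQ2, and was lower without ERG6 by -1.75 ± 0.13 (adjusted p = 0.00373).

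Of 21 hexose transporters and glucose sensors 6 passed, each as lower, a share of 28.6% near the 22.6% of all genes. The list had medians of -0.61 and -0.55 on the erg6 deletion arrays against -0.0029 and 0.063 on the snq2 deletion arrays. HXT10 had -0.61 and -0.60 where ERG6 was deleted and 0.62 and 0.73 where SNQ2 was, a difference of -1.28 ± 0.13 (adjusted p = 0.00528). HXT16 differed by -0.90 ± 0.14, HXT13 by -0.87 ± 0.14 and the galactose permease GAL2 by -0.87 ± 0.15. These genes are close in sequence, and cross-hybridisation between them was not examined here.

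Nuclear genes of the respiratory chain that passed mostly rose in both strains. Of 40 genes 31 rose and 4 fell in the erg6 deletion and 21 rose and 5 fell in the snq2 deletion, with medians of 0.92 and 0.98 against 0.29 and 0.37. The difference passed as higher at 21 and as lower at 3, with a median of 0.55. ATP14, a subunit of ATP synthase, had 0.49 and 0.50 without ERG6 and -1.30 and -1.41 without SNQ2, a difference of 1.85 ± 0.13 (adjusted p = 0.00373). CYT1, cytochrome c1, had 1.01 and 1.04 in the strain without ERG6 against -0.36 and -0.33 in the strain without SNQ2, a difference of 1.38 ± 0.13 (adjusted p = 0.00471). RIP1, the Rieske protein of complex III, had 0.63 and 0.53 where ERG6 was deleted and -0.78 and -0.66 where SNQ2 was, a difference of 1.30 ± 0.14 (adjusted p = 0.00545). In ATP14, CYT1 and RIP1 the response was positive without ERG6 and negative without SNQ2, unlike the list's median. QCR10, another subunit of complex III, went the opposite way with -1.34 and -1.09 without ERG6 and 1.05 and 1.05 without SNQ2, a difference of -2.26 ± 0.15 (adjusted p = 0.00355).

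Tricarboxylic acid cycle genes that passed were mostly higher too. Of 19 genes 7 were higher and 1 lower, and 14 rose in the erg6 deletion, against 11 in the snq2 deletion. MDH1, mitochondrial malate dehydrogenase, had 1.39 and 1.27 in the strain without ERG6 against 0.15 and 0.39 in the strain without SNQ2, a difference of 1.06 ± 0.16 (adjusted p = 0.00994), and CIT1, citrate synthase, differed by 0.84 ± 0.14. The subunits of isocitrate dehydrogenase diverged, since IDH2 was higher by 1.42 ± 0.15 (adjusted p = 0.00529) and IDH1 lower at -0.98 ± 0.14 (adjusted p = 0.00914).

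Genes of the glyoxylate cycle, gluconeogenesis and acetate use mostly rose in both strains. Of 25 genes 17 rose in the erg6 deletion, against 18 in the snq2 deletion, with medians of 0.84 and 0.90 against 1.02 and 1.01. The difference passed as higher at 3 (12%) and as lower at 4 (16%), against 20.1% and 22.6% of all genes. MDH3, peroxisomal malate dehydrogenase, had -0.11 and -0.072 where ERG6 was deleted and 1.24 and 1.31 where SNQ2 was, a difference of -1.36 ± 0.13 (adjusted p = 0.0049). ADR1, a factor that activates genes for non-fermentable carbon, had 0.070 and -0.034 without ERG6 and -1.64 and -1.59 without SNQ2, a difference of 1.63 ± 0.13 (adjusted p = 0.00406).

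Among mitochondrial ribosomal proteins, which translate the genes of the mitochondrial genome, more were lower than higher. Of 70 mitochondrial ribosomal proteins 4 were higher and 23 lower (32.9%, against 22.6% of all genes), with a median difference of -0.35. In the 26 without a recurring value it was -0.66, against -0.19 over all genes without one. The list's medians were -0.15 and -0.15 on the erg6 deletion arrays against 0.16 and 0.22 on the snq2 deletion arrays. MRPL20, a large subunit protein, had -0.53 and -0.47 in the strain without ERG6 against 1.31 and 1.24 in the strain without SNQ2, a difference of -1.78 ± 0.13 (adjusted p = 0.00376). MRPS16, a small subunit protein, had -0.82 and -0.95 where ERG6 was deleted and 0.73 and 0.79 where SNQ2 was, a difference of -1.64 ± 0.14 (adjusted p = 0.00406). MRPL4 differed by -1.46 ± 0.13 and MRPL49 by -1.31 ± 0.13, again below 0 without ERG6 and above 0 without SNQ2.

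Features encoded by the mitochondrial genome were also mostly lower. Of 18, including open frames within introns, 2 were higher and 10 lower, with a median difference of -0.63. The 8 without a recurring value had a median of -0.46, with 2 higher and 4 lower. All genes without one had a median of -0.19, with 31.5% lower. ATP8, a subunit of ATP synthase, was positive on all 4 arrays, with 0.13 and 0.34 without ERG6 and 1.39 and 1.75 without SNQ2, a difference of -1.33 ± 0.19 (adjusted p = 0.0092). The intron maturase BI3 ran the other way, with -0.35 and -0.39 in the strain without ERG6 against -1.96 and -2.001 in the strain without SNQ2, a difference of 1.61 ± 0.13 (adjusted p = 0.00406), while its neighbours BI2 and BI4 were lower at -0.79 ± 0.14 and -0.82 ± 0.14. These frames share transcripts, so they are not independent.

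Amino acid synthesis genes that passed were mostly higher. Of 56 genes, most of them targets of the activator Gcn4, 24 were higher and 9 lower, with a median of 0.36. ILV5, the reductoisomerase of valine and isoleucine synthesis, had 0.66 and 1.33 where ERG6 was deleted and -2.52 and -2.54 where SNQ2 was, a difference of 3.52 ± 0.26 (adjusted p = 0.00373). BAT1, the mitochondrial branched-chain aminotransferase, had 0.64 and 0.72 without ERG6 and -2.14 and -2.40 without SNQ2, a difference of 2.95 ± 0.16 (adjusted p = 0.00333). LEU1, isopropylmalate isomerase, had 0.23 and 0.34 in the strain without ERG6 against -2.32 and -2.68 in the strain without SNQ2, a difference of 2.78 ± 0.18 (adjusted p = 0.00354). All were positive without ERG6 and negative without SNQ2, as was TRP3. TRP3, of tryptophan synthesis, had 1.11 and 1.15 where ERG6 was deleted and -0.88 and -0.92 where SNQ2 was, a difference of 2.03 ± 0.13 (adjusted p = 0.00354). LEU9, a minor isopropylmalate synthase, ran the other way with -1.27 and -1.36 without ERG6 and 1.13 and 1.12 without SNQ2, a difference of -2.44 ± 0.13 (adjusted p = 0.00333). GCN4 itself, chosen after its value was seen, was higher by 1.24 ± 0.14.

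Sulfur genes went both ways as well. Of 30 genes 9 were higher (30%, against 20.1% of all genes) and 7 lower (23.3%, against 22.6%), with a median of 0.18. Of the 9 without a recurring value 6 passed, each as lower, and the 9 had a median of -0.82. All genes without one had a median of -0.19, with 31.5% lower. SAH1, which hydrolyses S-adenosylhomocysteine, had 1.00 and 0.049 in the strain without ERG6 against -2.66 and -2.73 in the strain without SNQ2, a difference of 3.22 ± 0.34 (adjusted p = 0.00549). MET6, methionine synthase, had 1.22 and 0.45 where ERG6 was deleted and -1.94 and -1.97 where SNQ2 was, a difference of 2.78 ± 0.29 (adjusted p = 0.00518). SAM1, a synthetase of S-adenosylmethionine, was negative in both strains, with -1.22 and -1.21 without ERG6 and -3.09 and -2.92 without SNQ2, a difference of 1.79 ± 0.14 (adjusted p = 0.00406). STR2, an enzyme of transsulfuration, was lower with -1.50 and -1.56 in the strain without ERG6 against -0.069 and -0.00016 in the strain without SNQ2, a difference of -1.50 ± 0.13 (adjusted p = 0.00439). MET5 and SUL1, of sulfate reduction and uptake and chosen after their values were seen, differed by -1.24 and -0.82.

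Of 46 genes under nitrogen catabolite repression and permeases 15 were higher and 4 lower, with a median of 0.14. UGA1, the transaminase of GABA, had -0.33 and -0.17 where ERG6 was deleted and -2.73 and -2.80 where SNQ2 was, a difference of 2.51 ± 0.14 (adjusted p = 0.00333). MEP2, an ammonium permease, had 0.22 and 0.51 without ERG6 and -2.27 and -2.37 without SNQ2, a difference of 2.69 ± 0.16 (adjusted p = 0.00346). GDH3, a glutamate dehydrogenase, differed by 1.23 ± 0.14 and PUT1, of proline breakdown, by 1.17 ± 0.14. UGA1, MEP2 and PUT1 each had a recurring value on 2 arrays, and the 18 members without one had a median of -0.11 with 6 higher and 2 lower.

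General stress genes rose in equal number in both strains. Of 40 targets of Msn2 and Msn4, the activators of the general stress response, 22 rose in the erg6 deletion, against 22 in the snq2 deletion, with medians of 0.60 and 0.52 against 0.76 and 0.75. The difference passed as higher at 5 (12.5%, against 20.1% of all genes) and as lower at 8 (20%, against 22.6%), with a median of -0.20. HSP12, a small membrane-associated stress protein, had 0.66 and 0.27 in the strain without ERG6 against 2.04 and 2.42 in the strain without SNQ2, a difference of -1.76 ± 0.22 (adjusted p = 0.00723). HSP26, a small heat shock protein, had 0.29 and 0.52 where ERG6 was deleted and 2.03 and 2.01 where SNQ2 was, a difference of -1.62 ± 0.15 (adjusted p = 0.00463). Both were positive on all 4 arrays and far higher without SNQ2. YGP1, a secreted glycoprotein, was the opposite with 0.33 and 0.0035 without ERG6 and -2.54 and -2.28 without SNQ2, a difference of 2.58 ± 0.19 (adjusted p = 0.00373).

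Other genes with a low difference had a strong positive response without SNQ2. TMA10, a ribosome-associated protein, had 0.83 and 0.20 in the strain without ERG6 against 3.34 and 3.62 in the strain without SNQ2, a difference of -2.97 ± 0.26 (adjusted p = 0.00449). RGI2, a gene of respiratory growth, had 1.31 and 1.37 where ERG6 was deleted and 3.35 and 3.43 where SNQ2 was, a difference of -2.05 ± 0.13 (adjusted p = 0.00354). Both were positive on all 4 arrays, so the difference lies in how far they went.

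Chaperone genes mostly fell in both strains. Of 33 cytosolic heat shock and chaperone genes 19 fell in the erg6 deletion, against 20 in the snq2 deletion, and the difference passed as higher at 10 and as lower at 6. The higher ones included the ribosome-bound Hsp70 SSB2, with 0.31 and 0.096 without ERG6 and -1.41 and -1.64 without SNQ2, a difference of 1.73 ± 0.17 (adjusted p = 0.00493), and its partner ZUO1, which differed by 1.51 ± 0.16. FES1, an exchange factor of Hsp70, was lower with -1.19 and -1.25 in the strain without ERG6 against 0.039 and 0.11 in the strain without SNQ2, a difference of -1.29 ± 0.13 (adjusted p = 0.00517). Of 15 CCT chaperonin and prefoldin genes 4 were higher (26.7%, against 20.1% of all genes) and 3 lower (20%, against 22.6%). They were led by CCT3 at -1.41 ± 0.13 against CCT2 at 0.96 ± 0.16.

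Of 34 genes of folding in the endoplasmic reticulum 8 were higher (23.5%) and 6 lower (17.6%), near the 20.1% and 22.6% of all genes. The list's median was 0.11 and, in the 9 without a recurring value, 0.46. KAR2, the Hsp70 of the endoplasmic reticulum, was negative on all 4 arrays. It had -0.98 and -0.92 where ERG6 was deleted and -1.99 and -2.26 where SNQ2 was, a difference of 1.18 ± 0.16 (adjusted p = 0.00825). DER1 and MNL1, which serve the disposal of misfolded proteins, were lower without ERG6 at -1.77 ± 0.17 and -1.87 ± 0.16, and the sensor IRE1 was higher by 1.26 ± 0.15. Proteasome genes that passed mostly rose in both strains, 20 of 36 in the erg6 deletion, against 15 in the snq2 deletion. Of the 36, the difference passed as higher at 6 (16.7%) and as lower at 7 (19.4%), near the 20.1% and 22.6% of all genes. The median difference was 0.27 and, in the 25 proteasome genes without a recurring value, 0.0998. CDC48, the ATPase that feeds the proteasome, had 1.20 and 1.08 without ERG6 and 0.22 and 0.15 without SNQ2, a difference of 0.96 ± 0.14 (adjusted p = 0.00914), against RPN6 at -0.86 ± 0.13.

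Vacuolar protease genes mostly rose in both strains, 8 of 13 in the erg6 deletion, against 10 in the snq2 deletion. In the difference 2 were higher and 2 lower, 15.4% each, against 20.1% and 22.6% of all genes. APE3, an aminopeptidase, had -0.077 and -0.16 in the strain without ERG6 against 1.49 and 1.36 in the strain without SNQ2, a difference of -1.55 ± 0.14 (adjusted p = 0.0045). Of 30 autophagy genes 9 were lower without ERG6 (30%, against 22.6% of all genes) and 1 higher, with a median of -0.31. The 13 without a recurring value had a median of -0.64 with 6 lower. All genes without one had a median of -0.19, with 31.5% lower. ATG14, which targets the Vps34 kinase to autophagy, had 0.035 and 0.36 where ERG6 was deleted and 1.63 and 1.86 where SNQ2 was, a difference of -1.55 ± 0.18 (adjusted p = 0.00664). ATG21, a phosphoinositide-binding protein, differed by -1.28 ± 0.14.

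Oxidative defence genes were mixed, with 6 of 35 higher and 6 lower, 17.1% each, against 20.1% and 22.6% of all genes. AHP1, a peroxiredoxin, had 0.45 and 0.67 without ERG6 and -0.73 and -1.09 without SNQ2, a difference of 1.47 ± 0.19 (adjusted p = 0.00764). OYE2, an NADPH oxidoreductase, was negative on all 4 arrays and higher without ERG6 by 1.46 ± 0.15, while GRX5, a mitochondrial glutaredoxin, was lower at -1.04 ± 0.14 and GSH2, of glutathione synthesis, at -0.96 ± 0.13.

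Of 38 iron genes 7 were higher (18.4%) and 6 lower (15.8%), against 20.1% and 22.6% of all genes. The list's median was -0.090 and, in the 16 without a recurring value, -0.35. CCC1, the transporter that stores iron in the vacuole, had -1.21 and -1.10 in the strain without ERG6 against 0.90 and 1.05 in the strain without SNQ2, a difference of -2.13 ± 0.14 (adjusted p = 0.00355). MRS4, which carries iron into mitochondria, had -0.53 and -0.56 where ERG6 was deleted and 0.78 and 0.88 where SNQ2 was, a difference of -1.37 ± 0.13 (adjusted p = 0.00492). AFT2, an activator of iron uptake genes, ran the other way with -0.068 and 0.068 without ERG6 and -1.60 and -1.91 without SNQ2, a difference of 1.75 ± 0.17 (adjusted p = 0.00503), and so did the cluster scaffold ISU2 at 2.73 ± 0.28. HEM25, a mitochondrial carrier of glycine for heme synthesis, was lower with -0.83 and -0.77 in the strain without ERG6 against 1.29 and 1.25 in the strain without SNQ2, a difference of -2.07 ± 0.13 (adjusted p = 0.00354).

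Of 26 phosphate genes 6 were higher (23.1%, against 20.1% of all genes) and 7 lower (26.9%, against 22.6%). PHO84, the high-affinity phosphate transporter, was negative on all 4 arrays, with -0.55 and -0.43 where ERG6 was deleted and -2.45 and -3.35 where SNQ2 was, a difference of 2.41 ± 0.33 (adjusted p = 0.00851). PHO81, the inhibitor of the phosphate-sensing kinase, was higher by 1.55 ± 0.13, and PHO5, an acid phosphatase, was lower at -1.19 ± 0.17. Of 19 genes of the vacuolar proton pump list 6 were higher and 2 lower. PMA1, the proton pump of the plasma membrane, which the list also holds, had -0.28 and -0.23 without ERG6 and -1.49 and -1.89 without SNQ2, a difference of 1.43 ± 0.19 (adjusted p = 0.00767). STV1, a subunit of the vacuolar type pump in the Golgi, was lower at -1.23 ± 0.19.

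Most histone genes were higher without ERG6, and among replication genes more were lower than higher. Of 11 histone genes 6 were higher and 1 lower, with a median of 0.67. HHT2, histone H3, had 1.20 and 1.34 in the strain without ERG6 against -0.66 and -0.55 in the strain without SNQ2, a difference of 1.87 ± 0.14 (adjusted p = 0.00389), and HTB1, histone H2B, differed by 1.34 ± 0.15. Of 43 replication genes 3 were higher and 16 lower, with a median of -0.28 and, in the 11 without a recurring value, -0.78 with 8 lower. All genes without one had a median of -0.19, with 31.5% lower. MCM6, of the replicative helicase, had 0.26 and 0.12 where ERG6 was deleted and 1.26 and 1.26 where SNQ2 was, a difference of -1.07 ± 0.14 (adjusted p = 0.00744). POL1, the polymerase alpha subunit, had -0.24 and -0.40 without ERG6 and 0.72 and 0.88 without SNQ2, a difference of -1.12 ± 0.15 (adjusted p = 0.00808), and DPB4, of polymerase epsilon, differed by -1.24 ± 0.13. SLD2, needed to start replication, had -2.13 and -2.41 in the strain without ERG6 against 0.15 and 0.19 in the strain without SNQ2, a difference of -2.44 ± 0.16 (adjusted p = 0.00354). CDC6, which loads the helicase, was lowest at -3.75 ± 0.23, with values near -4 on both erg6 deletion arrays that recurred at other features.

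Of 12 cyclin genes 2 passed, both as lower, a share of 16.7% against 22.6% of all genes. CLN3, the first cyclin of the cycle, was positive on all 4 arrays. It had 1.76 and 1.79 where ERG6 was deleted and 2.43 and 2.55 where SNQ2 was, a difference of -0.71 ± 0.14 (adjusted p = 0.0175). This difference did not pass after quantile normalisation, with a replicate block or with a 1.5-fold minimum. Of 36 genes of mRNA decay 6 were higher (16.7%) and 9 lower (25%), against 20.1% and 22.6% of all genes. The median of these 36 was -0.22 and, in the 14 without a recurring value, -0.43. Among them were EDC2, an activator of decapping, at 1.06 ± 0.13 and SKI2, a helicase of the exosome pathway, at -0.88 ± 0.13. Of 21 trehalose and glycogen genes 3 were higher (14.3%) and 4 lower (19%), against the same shares of all genes.

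Some genes with a low difference stood outside the lists. CWC23, a spliceosome-associated J protein, had -0.77 and -0.86 without ERG6 and 1.98 and 1.86 without SNQ2, a difference of -2.73 ± 0.14 (adjusted p = 0.00333). SMP3, a mannosyltransferase of GPI anchor synthesis, had -0.19 and -0.42 in the strain without ERG6 against 2.04 and 2.36 in the strain without SNQ2, a difference of -2.51 ± 0.18 (adjusted p = 0.00373). PFS1 had -0.30 and -0.039 where ERG6 was deleted and 2.23 and 2.21 where SNQ2 was, a difference of -2.39 ± 0.15 (adjusted p = 0.00354). In each of these, the erg6 deletion arrays lay below 0 and the snq2 deletion arrays above it, and the same held for TEL1, a checkpoint kinase of telomere maintenance, and APQ13. TEL1 had -0.58 and -0.68 without ERG6 and 1.53 and 1.69 without SNQ2, a difference of -2.25 ± 0.14 (adjusted p = 0.00354), and APQ13 differed by -2.04 ± 0.16. Among the highest, NCW1 had 0.75 and 0.62 in the strain without ERG6 against -2.50 and -2.53 in the strain without SNQ2, a difference of 3.20 ± 0.14 (adjusted p = 0.00258).

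**Figure D5:**
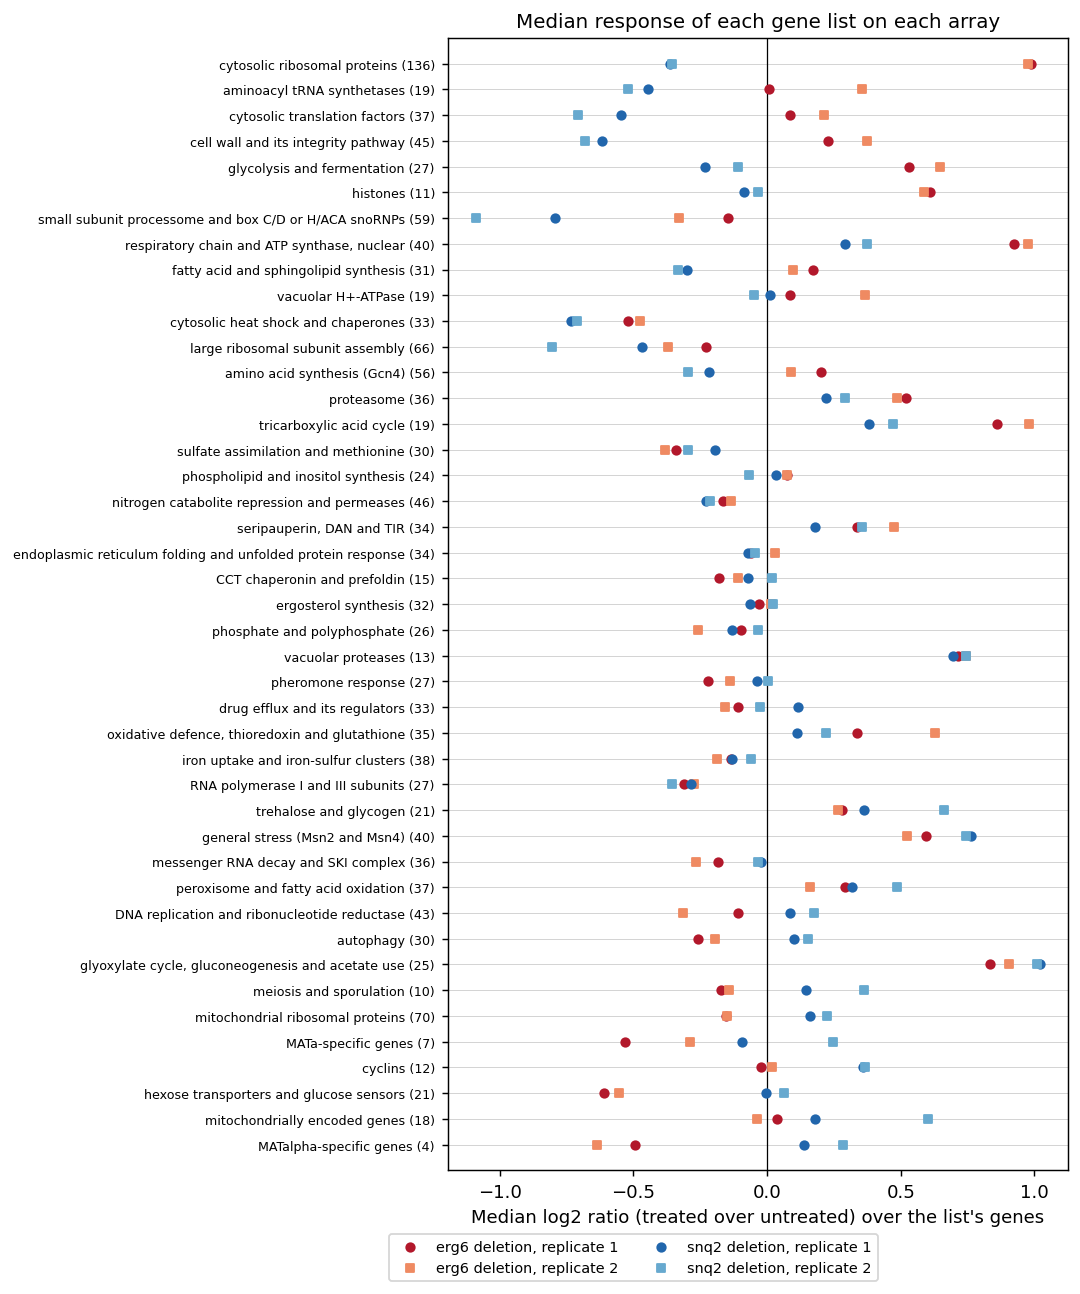
Median log2 ratio of treated over untreated (horizontal axis) over the measured genes of each of 43 lists (vertical axis, number of genes in parentheses), ordered by the median difference, on each of the 4 arrays. Red and orange points of the ribosomal protein list lie at 0.99 and 0.98 and its blue points at -0.36 and -0.36, while the 4 points of the glyoxylate list lie together between 0.84 and 1.02.

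A set of features with very low values in the erg6 deletion is described apart. On at least 1 of its arrays 183 genes read -3 or lower, 103 on one and 153 on the other, and 73 did so on both. On the snq2 deletion arrays 14 and 31 genes did. Of the 183, 91 (49.7%) passed as lower, and 66.7% matched an annotated gene against 91.6% of all genes. Their median absolute difference between the erg6 deletion replicates was 1.91, against 0.20 over all genes. The median difference of the set was -2.39, from medians of -3.17 and -0.44, and 12 Blank and 2 empty features read as low. The set was picked by its low erg6 deletion values, so its lower calls and low difference follow in part from that choice. The same holds for its gap between replicates, since a low value on 1 array was enough.

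The lowest of these were reading frames that matched no annotated gene. YPL073C had -4.08 and -4.46 where ERG6 was deleted and 0.59 and 0.64 where SNQ2 was, a difference of -4.88 ± 0.18 (adjusted p = 0.00258). YJL120W differed by -4.72 ± 0.20 and YLR169W by -4.59 ± 0.17, and values of all 3 recurred on 3 or 4 of the arrays. In others of the set a single replicate was low. IPI1, of large subunit assembly, read 3.61 and -4.25 on the erg6 deletion arrays, and its difference of 0.78 ± 2.62 (adjusted p = 0.825) became -3.14 without the first of them and 4.71 without the second, and passed both times. RCE1, a protease of prenylated proteins, read 0.39 and -4.04 there and -0.92 and -4.54 in the snq2 deletion. YBR085C-A was low on all 4 arrays, with a difference of 0.25 ± 0.73 (adjusted p = 0.799).

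Among reading frames with no annotated gene, more were lower than higher. Of 536 such features 45 (8.4%) were higher and 187 (34.9%) lower, with a median difference of -0.52 and quartiles of -1.08 and 0.098. Of 5826 annotated genes 1233 (21.2%) were higher and 1250 (21.5%) lower, with a median of -0.041.

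Markers of mating type were read as ratios, which do not give a level, so they do not check the strain. Of 4 alpha-specific genes 3 passed, each as lower, with STE3, the receptor for a-factor, at -0.46 and -0.64 without ERG6 and 0.86 and 0.90 without SNQ2, a difference of -1.43 ± 0.14 (adjusted p = 0.00513). SAG1, the alpha agglutinin, differed by -1.07 ± 0.14. Of 7 genes specific to mating type a, 1 was higher and 1 lower, and of 10 genes of meiosis and sporulation 3 passed, each as lower (30%, against 22.6% of all genes). Of 27 pheromone response genes 3 were higher and 3 lower, 11.1% each, against 20.1% and 22.6% of all genes. PRM5 led them with -0.39 and -0.88 in the strain without ERG6 against -2.91 and -3.06 in the strain without SNQ2. Its difference was 2.35 ± 0.21 (adjusted p = 0.00455).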

How the data were processed

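Per feature and array the authors deposited 1 number with a sign, used here as a log2 ratio of Cy5 (treated) over Cy3 (untreated). Per the labels, a GenePix 4000B scanner detected the bound cDNA. The log base, the direction and the steps from scan to value are not stated in labels or headers. Base 2 was taken because 29 pairs of recurring values within an array lay exactly 2 apart (the log2 of a 4-fold ratio), within 2e-08, while 0 pairs lay a natural or common log of the same ratio apart. Dyes were not swapped, so a dye effect specific to a gene cancels in the difference only where it is equal in both strains. Ratios hold no signal over background, and precision is limited by the number of arrays.

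In limma 3.58.1 (R 4.3.3), lmFit and eBayes fitted 1 mean per strain to the 4 arrays with 2 residual and 2.49 prior degrees of freedom. Benjamini-Hochberg adjustment ran over 6362 genes, with a threshold of 0.05. A control feature counted as passing at an unadjusted p up to 0.0213, the largest among genes that passed. A value was called recurring where another feature of the same array held it exactly. For the log base, only values that 5 or more features of an array held were paired. By locus tag, 5826 features matched a gene of RefSeq assembly R64, which gave the names, and 536 did not. The fit was tested on simulated data.

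The comparison, the gene lists and the naming rule were chosen with earlier results of these data known. An alias entered by mistake was removed from the efflux list and 3 list names were replaced by current ones. Lists are described by counts and medians, with no test. Named genes are the 15 highest and 15 lowest annotated differences that passed without overlap and above -3 on both erg6 deletion arrays, up to 4 members per list with the smallest p, 11 genes of interest (ERG6, SNQ2, PDR5, YOR1, PDR1, PDR3, YRR1, HIS3, LEU2, LYS2 and URA3), and the 3 highest and 3 lowest features at or below -3 there. Genes outside this rule are said to be chosen after their values were seen. Alternatives covered the parental arrays, a replicate block, each array left out, centring, scaling, quantile normalisation, robust moderation, 2 feature filters and a 1.5-fold minimum, and recurring values left out was added after the data were seen. Probe sequences were not used here.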

Additional observations from a re-analysis of the deposited data

Results flagged for a closer look

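The responses of the deletion strains differed at 2715 of 6362 genes by the test of the difference itself (limma, adjusted p under 0.05). The largest named differences above 0 were 4.134 at FKS1, 3.967 at YRR1 and 3.731 at NOG1, and, among annotated genes above -3 on both erg6 deletion arrays, the lowest were -2.987 at SUT1, -2.966 at TMA10 and -2.733 at CWC23, each on the log2 scale and with both arrays of one strain apart from both of the other. Empty features, which no comparison of genes used, had a median difference of 1.44. With 2 arrays per strain no array could be tested as standing apart within its group.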

How the results depend on the processing

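Of the 2715 genes that passed, 2676 also passed with all 6 arrays in the fit, 2515 with each array centred, 2542 with arrays also scaled and 2577 after quantile normalisation, where 2 changed sign. The split of higher and lower calls was 1278 to 1437, and 1419 to 1237 after centring. Features at or below -3 left out gave 2803 genes and robust moderation 2782. A minimum of 1.5-fold left 763, 416 higher and 347 lower. Leaving out features with a recurring value, an alternative chosen after the data were seen, left 2502 genes tested and 1673 that passed, 648 of them higher, including all 1317 earlier calls among them. Leaving out 1 array gave between 0 and 3153 genes past the threshold, 0 to 1469 higher and 0 to 1684 lower. The 0 arose without snq2 deletion replicate 1 or 2, where the spread rests on the erg6 deletion arrays alone and the smallest adjusted p was 0.0583 and 0.0689. With the parental arrays added after the data were seen, leaving out snq2 deletion replicate 1 or 2 gave 2332 and 1952, and leaving out 1 array of either strain gave 1952 to 3095.

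Replicate 1 minus replicate 2 correlated across genes at r = -0.002 between the strains, so no effect shared by equal replicate numbers was seen. That value does not tell how the samples were grown or paired. With the number as a replicate block 1871 genes passed, 917 higher and 954 lower. Among the named genes, signs turned at 4 that had not passed, with 1 array left out. The difference at SNQ2 then lay between -0.055 and 0.14, with -0.014 as another value below 0, and the difference at YBR085C-A between -0.79 and 1.30, with -0.017. The difference at RCE1 lay between -1.30 and 3.12, with -0.90 below 0 as well. The difference at IPI1 lay between -3.14 without erg6 deletion replicate 1, where it passed at an adjusted p of 3.32e-05, and 4.71 without replicate 2, where it passed too. What moves other values between alternatives was not tested. Ratios give no signal over background, so how far dim spots limit these calls cannot be told.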
